A study of Homo sapiens with 34 samples.

Results

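Hepcidin and 7 other genes of iron handling (HAMP, TFRC, TFR2, HFE, SLC40A1, FTH1, FTL and BMP6) were followed in 3 liver cancer lines before and up to 56 days after exposure to SGI-110. The genes were chosen by name, and every probe that the array annotation pairs with one of these symbols was read, which gave 11 probes of 7 genes, out of 20046 genes with a probe. For FTH1, the ferritin heavy chain, the annotation lists no probe, and it was not analysed here. Of the 11 probes, 9 exceeded background in at least 1 group, and all 7 genes entered the test, among 15298 genes.

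HepG2, SNU398 and SNU475 are established lines of human liver cancer, and their total RNA was read on 34 Illumina arrays, 2 for each of 17 groups. Each line was sampled untreated, and at days 3, 10, 17 and 24 after SGI-110, an inhibitor of DNA methyltransferases that releases decitabine. The drug was given at 100 nM in 3 daily doses, 72 h of exposure in all, and SNU475 was also sampled at days 31 and 56. Untreated cells exist at the start alone, so treatment and time in culture cannot be told apart. The labels do not say that the 2 arrays of a group are separate cultures. Each p-value rests on the spread within groups, pooled over the 17 groups, and this may be a spread between technical repeats. All cells of a culture were measured together, so fewer cells making an RNA and less of it per cell cannot be told apart.

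A level below is the normalized log2 intensity of 1 probe, and it can be compared between samples but not between probes. A level above 6.97 was taken as above background. Changes are log2 differences between group means of 2 arrays with the standard error of a limma fit over all 34 arrays, and a change was called at a Benjamini-Hochberg adjusted p under 0.05 over the 15298 genes. The deposited arrays fall into 3 sets with medians near 183.0, 172.7 and 156.3 intensity units. All HepG2 arrays and untreated SNU398 form set 1, treated SNU398 with SNU475 untreated and at day 3 form set 2, and SNU475 from day 10 on forms set 3. In SNU398 on every day, and in SNU475 from day 10 on, array set and treatment cannot be told apart. Comparisons within a set are given beside some of those results, and the others rest on values that cross sets. Untreated SNU475 lies in set 2 and untreated HepG2 and SNU398 in set 1. In comparisons of untreated SNU475 with these lines, line and array set cannot be told apart. Replicate arrays correlated across genes with Pearson's r from 0.992 to 0.995.

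Hepcidin is the peptide hormone by which the liver limits iron entry into plasma: it binds the iron exporter ferroportin, the product of SLC40A1, and has it degraded. Hepatocytes transcribe HAMP in response to BMP6 through SMAD proteins, with HFE and TFR2 reporting transferrin iron, and in response to interleukin 6 through STAT3. Inside cells, iron regulatory proteins bind iron-responsive elements when iron is low, which stabilizes the mRNA of the transferrin receptor TFRC and blocks translation of ferritin mRNA.

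Of the 7 measured genes, 6 matched a promoter window in the RefSeq table (GRCh38.p14, 250 bases before the start and 50 after it). Sequence is shown for HAMP, whose level moved most, and for the stretch of the FTL transcript that holds the loop letters of the iron-responsive element. In the HAMP stretch, chr19:35282278-35282527 on the plus strand, capitals mark GGCGCC, the core of the BMP-responsive element, and a match to the STAT palindrome TTCNNNGAA.
HAMP promoter: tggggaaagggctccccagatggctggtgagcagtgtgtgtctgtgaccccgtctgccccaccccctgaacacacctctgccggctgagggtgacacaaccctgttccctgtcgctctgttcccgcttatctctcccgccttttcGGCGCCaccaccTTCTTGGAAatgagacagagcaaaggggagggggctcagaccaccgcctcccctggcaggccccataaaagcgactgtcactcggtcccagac
In the FTL stretch, chr19:48965329-48965358 on the plus strand, capitals mark CAGTGN, searched on the transcribed strand after the start.
FTL transcript: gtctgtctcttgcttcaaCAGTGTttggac

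Positions are counted back from the transcription start, with -1 the base just before it. In HAMP the GGCGCC match began at position -105 and the TTCNNNGAA match at position -93. Searched on both strands, GGCGCC occurred in 19.2% of the 35116 promoter windows and TTCNNNGAA in 7.66%. Among the other members, GGCGCC was also found in the window of TFRC, at position -201, and TTCNNNGAA in none of the 6 but HAMP. The E-box CANNTG, present in 68.7% of windows, lay at position -234 in HAMP and at -214 in TFRC. The loop letters CAGTGN, present after the start in 6.36% of windows, began at base 39 of the FTL transcript and at base 24 of HAMP. Letters alone do not make a site. The dinucleotide CG, the target of DNA methyltransferases, occurred 12 times in the 300 bases of HAMP, and 48.3% of windows held as many or fewer. CG counts were 10 in HFE, 23 in FTL, 33 in BMP6, 37 in TFRC and 47 in SLC40A1, and for SLC40A1 98.0% of windows held as many or fewer.

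Among the measured genes, HAMP showed the widest swing, and it did so in HepG2. It stood at 13.01 and 12.59 on the untreated arrays, at 13.71 and 13.16 at day 3, at 9.13 and 9.48 at day 10, at 14.63 and 14.48 at day 17, and at 12.07 and 12.37 at day 24. Day 17 was highest and day 10 lowest, and no 2 neighbouring days in the order of levels overlapped. Even the day 10 arrays lay above background.

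Against untreated HepG2, HAMP fell by 3.49 ± 0.21 at day 10, 11.3-fold (95% confidence interval from -3.92 to -3.07, adjusted p = 4.91e-14). At day 17 it rose by 1.75 ± 0.21, 3.37-fold (adjusted p = 1.17e-07). The swing within the treated days was larger than either: HAMP fell 17.5-fold from day 3 to day 10 (adjusted p = 2.62e-15), rose 38-fold from day 10 to day 17 (5.25 ± 0.21, adjusted p = 1.16e-16) and fell 5.05-fold from day 17 to day 24 (adjusted p = 9e-09). All 5 HepG2 groups lie in 1 array set. The smaller changes, 0.64 ± 0.21 at day 3 (adjusted p = 0.0352) and -0.58 ± 0.21 at day 24 (adjusted p = 0.0358), passed the test but depended on single arrays. The day 3 value was 0.43 without untreated array 2 (adjusted p = 0.314) and 0.36 without day 3 array 1 (adjusted p = 0.409), and the day 24 value was -0.38 without untreated array 1 (adjusted p = 0.33) and -0.43 without day 24 array 1 (adjusted p = 0.257). Both calls were also lost with a background offset of 16 (adjusted p = 0.145 and 0.139) and in a fit of the HepG2 arrays alone (adjusted p = 0.0641 and 0.057).

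**Figure D1:**
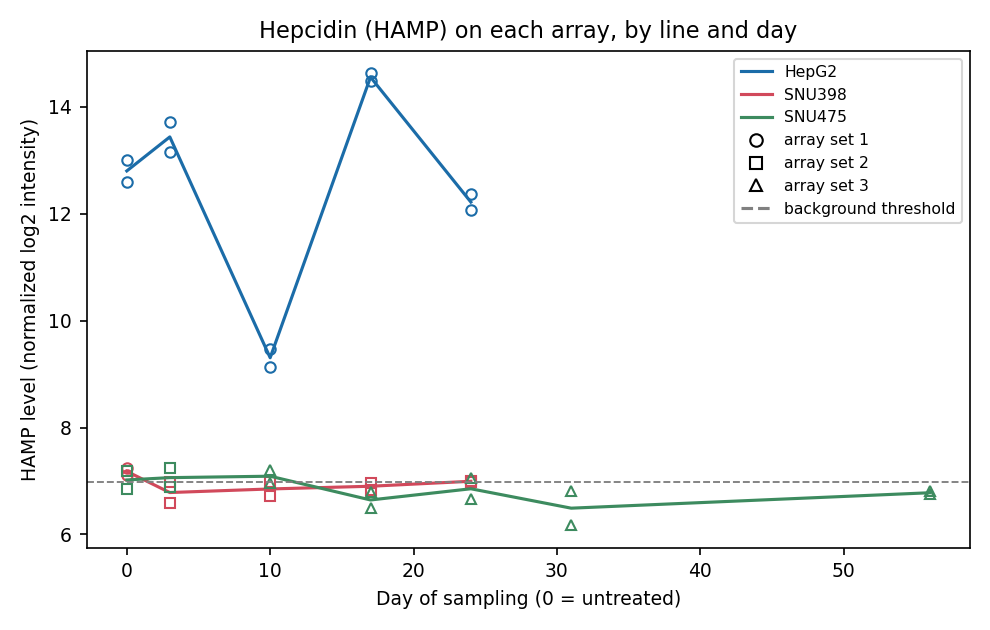
HAMP level on each array (normalized log2 intensity) against the day of sampling, with untreated cells at day 0. Lines join group means, marker shapes give the array set, and the dashed line is the background threshold of 6.97. HepG2 dropped to 9.13 and 9.48 at day 10 and reached 14.63 and 14.48 at day 17, while SNU398 and SNU475 stayed within 6.17 to 7.25.

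In the other lines HAMP lay near background. Over the 10 SNU398 arrays it ranged from 6.58 to 7.25 with a median of 6.98, and 6 arrays exceeded the threshold. Over the 14 SNU475 arrays it ranged from 6.17 to 7.24 with a median of 6.83, and 4 arrays exceeded it. Untreated HepG2 was 49.2-fold above untreated SNU398 (adjusted p = 4.93e-20). Against SNU475, where 1 of the untreated arrays exceeded the threshold, it was at least 52.8-fold higher (adjusted p = 2.66e-20), a bound taken against the higher of the dim array's own level and the threshold. No treated day in SNU398 or SNU475 differed from untreated cells in HAMP by the test.

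The day 10 fall was tested as a difference between lines. Day 10 was chosen with the HAMP fall in these HepG2 arrays already known, so the p-values here are not independent support for it. The HAMP change at day 10 was lower in HepG2 than in SNU398 by 3.17 on the log2 scale (difference -3.17 ± 0.29, adjusted p = 1.65e-09) and lower than in SNU475 (difference -3.56 ± 0.29, adjusted p = 2.05e-10). HAMP started at or just above the threshold in both other lines, at 7.25 and 7.11 in SNU398 and at 6.86 and 7.18 in SNU475, so no fall of that size could have been measured there.

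Of the 8 hepatocyte markers on the chip, 7 were above background on every HepG2 array. Of these, ALB, APOA1, APOA2, SERPINA1 and TF lay between 15.48 and 15.96 on all 10 arrays, at the top of the scale, where a change could hardly show, so nothing is read from their levels. The other pair had room to move. TTR (transthyretin) stood at 14.05 and 13.77 untreated, 14.34 and 13.85 at day 3, 13.59 and 13.61 at day 10, 13.84 and 13.62 at day 17, and 14.49 and 14.55 at day 24. FGB (fibrinogen beta chain) stood at 14.57 and 14.62, then 14.13 and 14.41, 15.43 and 15.39, 14.27 and 14.46, and 15.00 and 15.05. At day 10, when HAMP was lowest, TTR was also at its lowest and FGB was at its highest. Their part in the HAMP change was not tested. In SNU398 and SNU475, 1 of the 8 markers was above background on every array and APOA2 and CYP3A4 on none. CYP3A4 exceeded it on 1 of 10 HepG2 arrays. SERPINA1 did so on 8 of 10 SNU398 and 11 of 14 SNU475 arrays, APOA1 on 8 of 10 and 1 of 14, and FGB on 0 of 10 and 8 of 14. TTR did so on 1 of 10 and 1 of 14, and TF on 1 of 10 and 2 of 14. The labelled liver origin of these 2 lines thus showed on every array in few markers.

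Of the 5 markers of macrophages and blood cells, CD14, CD68 and LYZ were above background on every HepG2 array (8.94 to 12.81, 10.30 to 11.27 and 13.91 to 15.28), CD163 on 5 of 10 and PTPRC on 0. CD14 and CD68 were also above it on every SNU475 array, and CD68 on every SNU398 array. PTPRC, the leukocyte antigen CD45, was above it on 0 of 34 arrays. In HepG2 the summed level of the 5 was 15.19 and 15.19 untreated, 15.17 and 15.09 at day 10 and 14.49 and 14.68 at day 17. LYZ, the brightest, made up most of this sum, at 15.11 and 15.11, then 14.73 and 14.63, and 13.91 and 14.20. CD14 moved otherwise, from 8.94 and 9.07 to 12.81 and 12.71 at day 10 and 12.34 and 12.32 at day 17. CD68 stood at 10.33 and 10.39, then 11.15 and 11.27, and 11.06 and 10.99. The part of these markers in the HAMP change was not tested.

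Transcripts of the BMP and SMAD branch were read beside HAMP in HepG2. ID1 and ID3, direct targets of BMP signalling, were at their lowest on the same day. ID1 stood at 13.95 and 13.73 untreated, 13.44 and 13.44 at day 3, 12.10 and 12.26 at day 10, 13.94 and 13.82 at day 17, and 12.74 and 12.93 at day 24. ID3 stood at 12.71 and 12.63, then 12.07 and 11.87, 10.45 and 10.33, 12.46 and 12.34, and 10.94 and 10.98 in the same order of days. Both thus dipped at day 10, returned close to the untreated level at day 17 and dipped again at day 24.

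At day 10 ID1 fell by 1.66 ± 0.13 (adjusted p = 1.2e-11) and ID3 fell by 2.28 ± 0.12 (adjusted p = 6.82e-15). From day 10 to day 17 they rose by 1.70 ± 0.13 and 2.01 ± 0.12 (adjusted p = 1.49e-11 and 3.38e-13), and from day 17 to day 24 they fell by 1.04 ± 0.13 and 1.44 ± 0.12 (adjusted p = 2.14e-06 and 4.8e-09). HAMP and the ID genes parted at 2 points. At day 3 ID1 was lower (-0.40 ± 0.13, adjusted p = 0.0301) and ID3 too (-0.70 ± 0.12), while HAMP was higher, on a call that depended on single arrays. At day 17 neither ID gene differed from untreated cells by the test (0.04 ± 0.13 and -0.27 ± 0.12, adjusted p = 0.876 and 0.108), while HAMP was 3.37-fold up.

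TMPRSS6, the protease that trims the BMP co-receptor hemojuvelin and so restrains hepcidin, moved otherwise. It stood at 6.68 and 7.48 untreated, where 1 array of 2 exceeded background, then at 8.03 and 7.89, 8.30 and 7.97, 9.23 and 9.32, and 8.65 and 8.79. It was higher than untreated on each treated day, most at day 17 (at least 4.14-fold, adjusted p = 1.87e-10), the day on which HAMP was highest. CREB3L3, a liver transcription factor reported to activate hepcidin, was also higher on each day, from 1.14 ± 0.16 at day 3 to 1.86 ± 0.16 at day 17. GDF15, a stress cytokine, rose by 1.07 ± 0.16 from day 3 to day 10 and fell by 1.38 ± 0.16 by day 17 (adjusted p = 4.99e-06 and 7.87e-08), opposite in sign to HAMP in both steps.

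**Figure D2:**
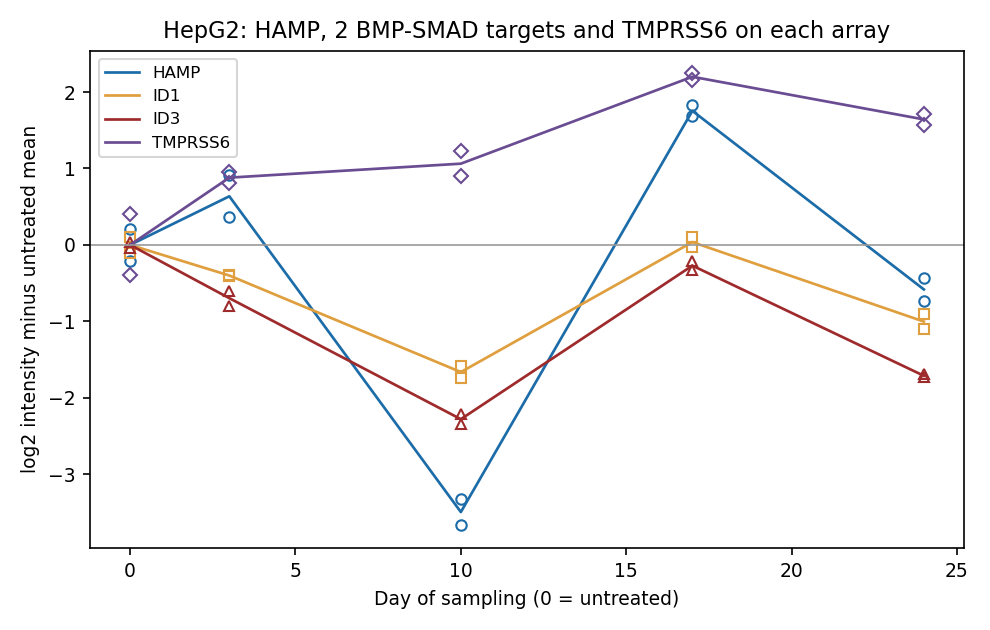
HepG2 arrays, level of HAMP, ID1, ID3 and TMPRSS6 minus the mean of the untreated arrays (log2), against the day of sampling, with lines through group means. HAMP, ID1 and ID3 were lowest at day 10 (-3.49, -1.66 and -2.28), and TMPRSS6 was highest at day 17 (2.20, against untreated arrays of which 1 was below background).

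BMP6, the ligand through which the liver reports iron stores to hepatocytes, was not above background on any HepG2 array, with levels from 6.25 to 6.93. In SNU475 it stood at 7.72 and 7.19 untreated, 7.46 and 7.21 at day 3, 7.72 and 7.36 at day 10, 7.68 and 7.49 at day 17, 7.72 and 7.73 at day 24, 8.29 and 8.19 at day 31, and 9.94 and 9.93 at day 56. The arrays up to day 24 shared a range of 7.19 to 7.73, and days 31 and 56 lay above all of them. BMP6 at day 56 was 5.59-fold above untreated cells (2.48 ± 0.17, adjusted p = 8.86e-13) and 5.28-fold above day 10 of the same array set (2.40 ± 0.17, adjusted p = 2.32e-12). It had risen 3.25-fold since day 31 (adjusted p = 3.02e-09). The day 31 value of 0.78 ± 0.17 (adjusted p = 0.00185) was 0.52 without untreated array 2 (adjusted p = 0.102) and 0.43 on the deposited scale (adjusted p = 0.0108).

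Other genes marked day 56 of SNU475 as well. The summed level of the 4 mesenchymal markers was 16.18 and 16.09 there and 15.11 to 15.43 on the other SNU475 arrays. Its part in the BMP6 change was not tested. In SNU398, BMP6 stood at 8.34 and 8.23 untreated and ended at 7.38 and 7.80 at day 24, a fall by 0.69 ± 0.17 (adjusted p = 0.00481) that was -0.48 without day 24 array 1 (adjusted p = 0.128). The days between ranged from 7.83 to 8.36 and were not called. The day 24 fall crosses array sets, and within set 2 BMP6 at day 24 was not called against day 3.

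HFE, the MHC class I-like protein that hands the transferrin signal to TFR2, was read on 3 probes. One probe was above background in a group, and the other 2 exceeded the threshold on 0 of 34 arrays. In HepG2 it exceeded the threshold on none of 10 arrays (6.23 to 6.93) and in SNU398 on 3 of 10. In SNU475 it stood at 7.69 and 7.47 untreated, 7.65 and 8.05 at day 3, 7.43 and 7.46 at day 10, 7.44 and 7.39 at day 17, 6.80 and 6.82 at day 24, 7.39 and 7.52 at day 31, and 6.41 and 6.31 at day 56. Days 24 and 56 thus lay below background, with day 31 back near the untreated level.

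HFE was at least 1.53-fold lower than untreated at day 24 (adjusted p = 0.002) and at day 56 (adjusted p = 3.99e-06), a bound set by the threshold. Within the array set, day 56 was at least 1.38-fold below day 10 (adjusted p = 2.57e-05). The rise from day 24 to day 31, at least 1.39-fold (adjusted p = 0.0108), missed the test in 3 of 4 fits that left out an array, which were those without day 24 array 1 or 2 (adjusted p = 0.055 and 0.0503) and without day 31 array 2 (adjusted p = 0.0838). With levels this near background, HFE in the other lines was close to the limit of these arrays.

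TFR2, the transferrin receptor by which hepatocytes sense rather than take up iron, was above background in HepG2 and on 0 of 10 SNU398 and 0 of 14 SNU475 arrays (6.11 to 6.71 and 6.10 to 6.77). In HepG2 it stood at 7.35 and 7.31 untreated, 8.41 and 8.61 at day 3, 9.17 and 9.34 at day 10, 8.74 and 8.79 at day 17, and 8.90 and 8.59 at day 24. Every treated array lay above both untreated arrays, and day 24 overlapped days 17 and 3. TFR2 was thus highest on the day when HAMP was lowest, and at days 17 and 24 it lay between its day 10 and its untreated levels.

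TFR2 rose 2.26-fold at day 3 (1.18 ± 0.16, adjusted p = 5.6e-06), 3.79-fold at day 10 (1.92 ± 0.16, adjusted p = 1.53e-10), 2.70-fold at day 17 (adjusted p = 8.28e-08) and 2.67-fold at day 24 (adjusted p = 1.15e-07). The mean change over the 4 days was larger in HepG2 than in SNU398 by 1.47 ± 0.18 (adjusted p = 3.27e-07) and than in SNU475 by 1.62 ± 0.18 (adjusted p = 9.95e-08). The step down from day 10 to day 17 (-0.49 ± 0.16, adjusted p = 0.0259) missed the test without day 10 array 2 (-0.41, adjusted p = 0.171), day 17 array 1 (-0.47, adjusted p = 0.12) or day 17 array 2 (-0.52, adjusted p = 0.0762).

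SLC40A1, the gene of ferroportin and hepcidin's target, was read on 2 probes, of which the brighter is given first. In HepG2 it stood at 9.81 and 9.98 untreated, 10.25 and 10.37 at day 3, 10.75 and 10.88 at day 10, 10.56 and 10.55 at day 17, and 10.03 and 9.83 at day 24. It peaked at day 10, the day of the HAMP minimum, and was back near the untreated values at day 24. In SNU475 it stood at 10.05 and 10.25 untreated, 10.36 and 10.37 at day 3, 9.98 and 10.00 at day 10, 9.76 and 9.83 at day 17, 9.78 and 9.48 at day 24, 9.46 and 9.31 at day 31, and 8.71 and 8.67 at day 56. From day 3 on the SNU475 group means of this brighter probe fell at each later day, with the step to day 10 crossing array sets. Day 56 lay below all other arrays of the line. The dimmer probe did not fall at each step, with means of 8.31, 7.78, 7.80, 7.62, 7.83 and 7.31 from day 3 to day 56.

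In HepG2 SLC40A1 rose by 0.92 ± 0.14 at day 10 (1.89-fold, adjusted p = 6.94e-06) and by 0.66 ± 0.14 at day 17 (adjusted p = 0.000669), and at day 24 its difference from untreated was 0.04 ± 0.14 (adjusted p = 0.88). The dimmer probe gave 0.64 ± 0.20 at day 10 (adjusted p = 0.0159) and 0.45 ± 0.20 at day 17, which missed the test (adjusted p = 0.111). The day 3 value of 0.42 ± 0.14 (adjusted p = 0.0434) was lost with any of the 4 arrays left out (0.34 to 0.51 on the log2 scale, adjusted p from 0.0654 to 0.253).

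In SNU475 SLC40A1 was 2.74-fold below untreated at day 56 (-1.46 ± 0.14, adjusted p = 1.02e-09) and 2.46-fold below day 10 of the same array set (adjusted p = 1.04e-08). The dimmer probe fell by 0.81 ± 0.20 against untreated (adjusted p = 0.00144) and read -0.46 ± 0.20 against day 10 (adjusted p = 0.0654). At day 31 the brighter probe was lower by 0.76 on the log2 scale (-0.76 ± 0.14, adjusted p = 0.000283), and the dimmer probe read -0.30 ± 0.20 (adjusted p = 0.387). The day 24 fall by 0.52 ± 0.14 (adjusted p = 0.00518) was -0.42 without untreated array 2 (adjusted p = 0.0785) and -0.37 without day 24 array 2 (adjusted p = 0.114), and it was -0.78 on the deposited scale.

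SNU398 had the lowest ferroportin transcript of the 3 lines, with all 10 arrays between 7.42 and 8.08. Untreated SNU398 was 4.56-fold below HepG2 (adjusted p = 4.53e-14) and 5.44-fold below SNU475 (adjusted p = 3.8e-15). Its day 10 value, 0.37 ± 0.14 (adjusted p = 0.0431), was lost with untreated array 2 left out (0.21, adjusted p = 0.409), with either day 10 array left out (0.38 and 0.36, adjusted p = 0.124 and 0.134) and with the mean of both probes (0.22, adjusted p = 0.244).

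TFRC, the receptor that brings transferrin iron into cells, changed most in SNU398. It stood there at 11.85 and 11.96 untreated, 13.51 and 13.42 at day 3, 13.12 and 13.05 at day 10, 13.83 and 13.58 at day 17, and 12.76 and 12.51 at day 24. Every treated array lay above the untreated ones, and no 2 neighbouring days in the order of levels overlapped. TFRC was 2.95-fold up at day 3 (1.56 ± 0.13, adjusted p = 3.53e-10), 2.27-fold at day 10 (adjusted p = 3.98e-08), 3.48-fold at day 17 (1.80 ± 0.13, adjusted p = 1.39e-11) and 1.66-fold at day 24 (adjusted p = 0.000199).

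All of these set array set 2 against set 1, and the treated days could be compared within set 2. There TFRC fell 2.10-fold from day 17 to day 24 (-1.07 ± 0.13, adjusted p = 3.62e-06) and lay 1.78-fold lower at day 24 than at day 3 (adjusted p = 5.02e-05). From day 10 to day 17 it rose by 0.62 ± 0.13 (adjusted p = 0.000695). The fall by 0.38 ± 0.13 from day 3 to day 10 (adjusted p = 0.0266) was lost without day 3 array 1 (-0.33, adjusted p = 0.145), day 10 array 1 (-0.41, adjusted p = 0.0696) or day 10 array 2 (-0.35, adjusted p = 0.122). In untreated cells TFRC was 4.0-fold lower in SNU398 than in HepG2 (adjusted p = 8.32e-14) and 2.04-fold lower than in SNU475 (adjusted p = 8.68e-08). At day 17 the SNU398 arrays lay in the range of HepG2.

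In the other lines TFRC moved little. In HepG2 it ranged from 13.37 to 13.98 over 10 arrays, and the one call, -0.47 ± 0.13 at day 10 (adjusted p = 0.00673), was lost without untreated array 1 (-0.40, adjusted p = 0.0766) or day 10 array 2 (-0.41, adjusted p = 0.0694). In SNU475 it ranged from 12.38 to 13.05. At day 56 it had fallen by 0.52 ± 0.13 against untreated cells (1.44-fold, adjusted p = 0.00167), or by 0.79 on the deposited scale. From day 10 on such values set array set 3 against set 2. Within set 3, TFRC stood at 12.70 and 12.64 at day 10 and at 12.44 and 12.38 at day 56. That difference was not called. From day 31 to day 56 TFRC fell by 0.47 ± 0.13, a step that depended on a single array. Its day 24 value of -0.39 ± 0.13 (adjusted p = 0.0233) was lost without untreated array 1 (-0.40, adjusted p = 0.0798), untreated array 2 (-0.38, adjusted p = 0.0945) or day 24 array 2 (-0.29, adjusted p = 0.202), and was -0.64 on the deposited scale. The mean change over days 3 to 24 was higher in SNU398 than in SNU475 by 1.53 ± 0.15 (adjusted p = 3.7e-09), and lower in HepG2 than in SNU398 (difference -1.61 ± 0.15, adjusted p = 1.53e-09).

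**Figure D3:**
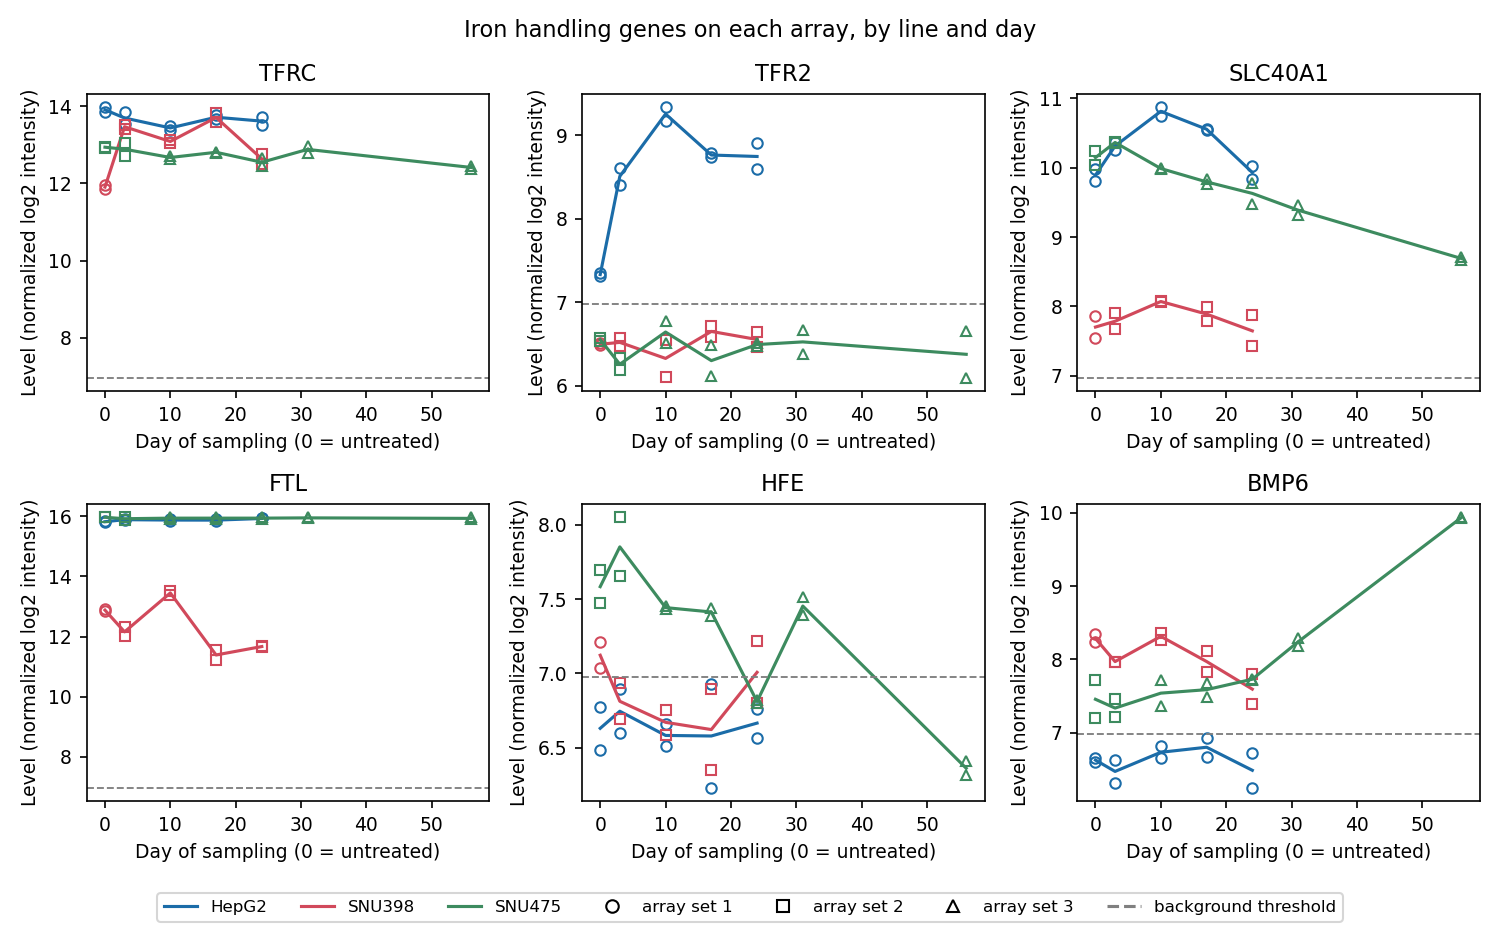
Level on each array (normalized log2 intensity) of TFRC, TFR2, SLC40A1, FTL, HFE and BMP6 against the day of sampling. Colours give the line, marker shapes the array set, lines join group means, and the dashed line is the background threshold. TFR2 was above it in HepG2 alone, FTL lay lower in SNU398 than in both other lines, and BMP6 in SNU475 reached 9.94 and 9.93 at day 56.

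FTL, the ferritin light chain of the iron store, was among the brightest probes of HepG2 and SNU475, at 15.80 to 15.92 and 15.87 to 15.96. There its deposited values ranked between 2 and 18 of all probes in HepG2 and between 1 and 6 in SNU475. Quantile normalization leaves almost no room for change at such ranks, so no statement on FTL change is made for these lines. SNU398 was different: FTL stood at 12.85 and 12.90 untreated, 12.01 and 12.30 at day 3, 13.52 and 13.38 at day 10, 11.54 and 11.23 at day 17, and 11.64 and 11.70 at day 24. Day 10 was highest and day 17 lowest, and no neighbouring days in the order of levels overlapped.

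Untreated SNU398 had at least 7.66-fold less FTL signal than HepG2 (adjusted p = 1.24e-19) and at least 8.48-fold less than SNU475 (adjusted p = 5.35e-20), lower bounds because the brighter side lay at the top of the scale. Against untreated SNU398, FTL fell by 0.72 ± 0.11 at day 3 (adjusted p = 9.32e-06), rose by 0.57 ± 0.11 at day 10 (adjusted p = 0.000179), and fell by 1.49 ± 0.11 at day 17 (2.81-fold, adjusted p = 1.93e-11) and by 1.21 ± 0.11 at day 24 (adjusted p = 3.12e-09). The second FTL probe gave -0.81, 0.62, -1.52 and -1.09 on the same days, each ± 0.11 and each called. Within array set 2 FTL rose 2.45-fold from day 3 to day 10 (1.29 ± 0.11, adjusted p = 3.62e-10) and fell 4.17-fold from day 10 to day 17 (-2.06 ± 0.11, adjusted p = 5.92e-14).

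TFRC and FTL thus moved in opposite directions in SNU398 at the steps to day 10 and to day 17, the first of these on a TFRC change that depended on single arrays. HMOX1, the haem oxygenase that frees iron from haem, moved in the direction of FTL at these 2 steps but not throughout. It stood at 11.64 and 11.62 untreated, 10.85 and 11.19 at day 3, 12.96 and 12.99 at day 10, 11.83 and 11.76 at day 17, and 11.37 and 11.44 at day 24. It rose by 1.95 ± 0.14 from day 3 to day 10 (adjusted p = 3.9e-12) and fell by 1.18 ± 0.14 by day 17 (adjusted p = 1.14e-07). At day 17, when FTL was 2.81-fold below untreated, both HMOX1 arrays lay above both untreated ones, and at day 24 HMOX1 stood lower than at day 17 while FTL stood higher. ISCU, the scaffold on which iron-sulphur clusters are built, fell by 1.28 ± 0.11 at day 3 and by 1.21 ± 0.11 at day 17 against untreated cells, and rose by 0.96 ± 0.11 from day 3 to day 10 (adjusted p = 2.71e-10, 5.98e-10 and 5.08e-08).

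**Figure D4:**
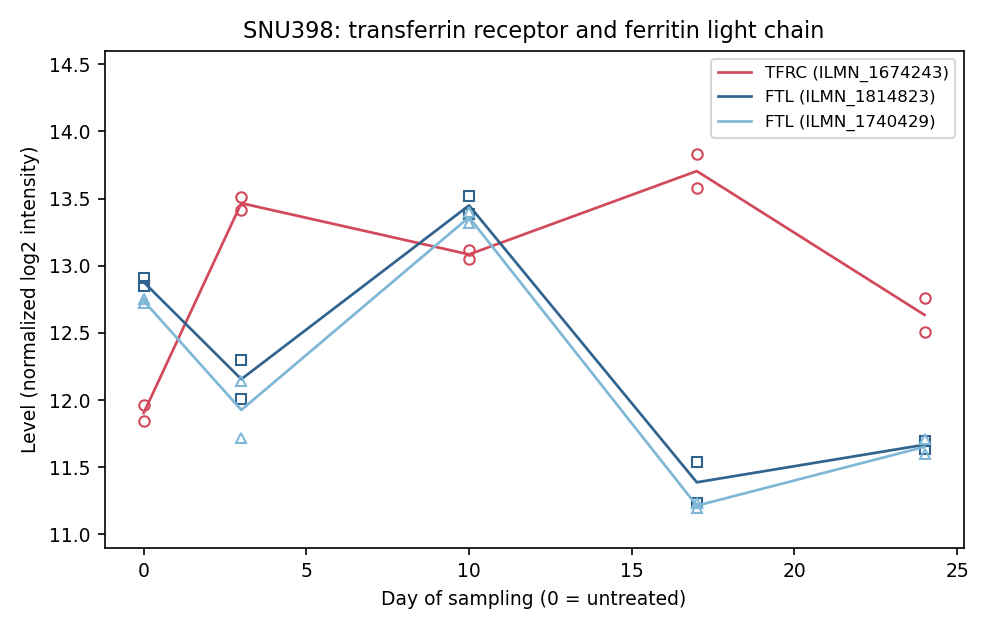
SNU398 arrays, level (normalized log2 intensity) of the TFRC probe and of both FTL probes against the day of sampling, with lines through group means. Levels of different probes are not on one scale, and each line is to be read over days. Both FTL probes peaked at day 10 (13.52 and 13.38, and 13.40 and 13.32). TFRC stood lower at day 10 than at days 3 and 17, the former on a step that depended on single arrays.

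Of the 7 measured members, 3 were called in HepG2 at day 3, all higher (HAMP, TFR2 and SLC40A1), against 14.7% of all genes called in either direction. Of these, HAMP and SLC40A1 depended on single arrays, so the count is not read as an excess. At day 10 TFR2 and SLC40A1 were higher and HAMP and TFRC lower, against 32.8% of all genes. At day 17 the same 3 genes as at day 3 were higher, against 25.8%, and at day 24 TFR2 was higher and HAMP lower, against 26%. The 2 of 7 called at day 24 were near the background share. The TFRC call at day 10 and the HAMP call at day 24 also depended on single arrays.

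In SNU398, TFRC was higher and FTL lower at day 3, against 33.5% of all genes. At day 10 TFRC, SLC40A1 and FTL were higher, against 35.4%, and at day 17 TFRC was higher and HFE and FTL lower, against 34.5%. The HFE value at day 17, at least 1.11-fold lower (adjusted p = 0.0414), was lost without untreated array 1 (adjusted p = 0.209), untreated array 2 (adjusted p = 0.0672) or day 17 array 1 (adjusted p = 0.489). At day 24 TFRC was higher and FTL and BMP6 lower, against 19.9%. The SLC40A1 call at day 10 and the BMP6 call at day 24 also depended on single arrays. Up to day 17 these counts of 2 or 3 in 7 were near the background share.

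In SNU475, 0 of 7 members were called at days 3, 10 and 17, against 3.79%, 20.6% and 14.7% of all genes. At day 24 TFRC, HFE and SLC40A1 were lower, against 34.3%, and at day 31 BMP6 was higher and SLC40A1 lower, against 14.1%. Of these, TFRC and SLC40A1 at day 24 and BMP6 at day 31 depended on single arrays. At day 56 BMP6 was higher and TFRC, HFE and SLC40A1 lower, against 47.7% of all genes, so 4 of 7 was near the background. The median change of the 7 members was -0.24 at day 56, against -0.04 over all genes.

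**Figure D5:**
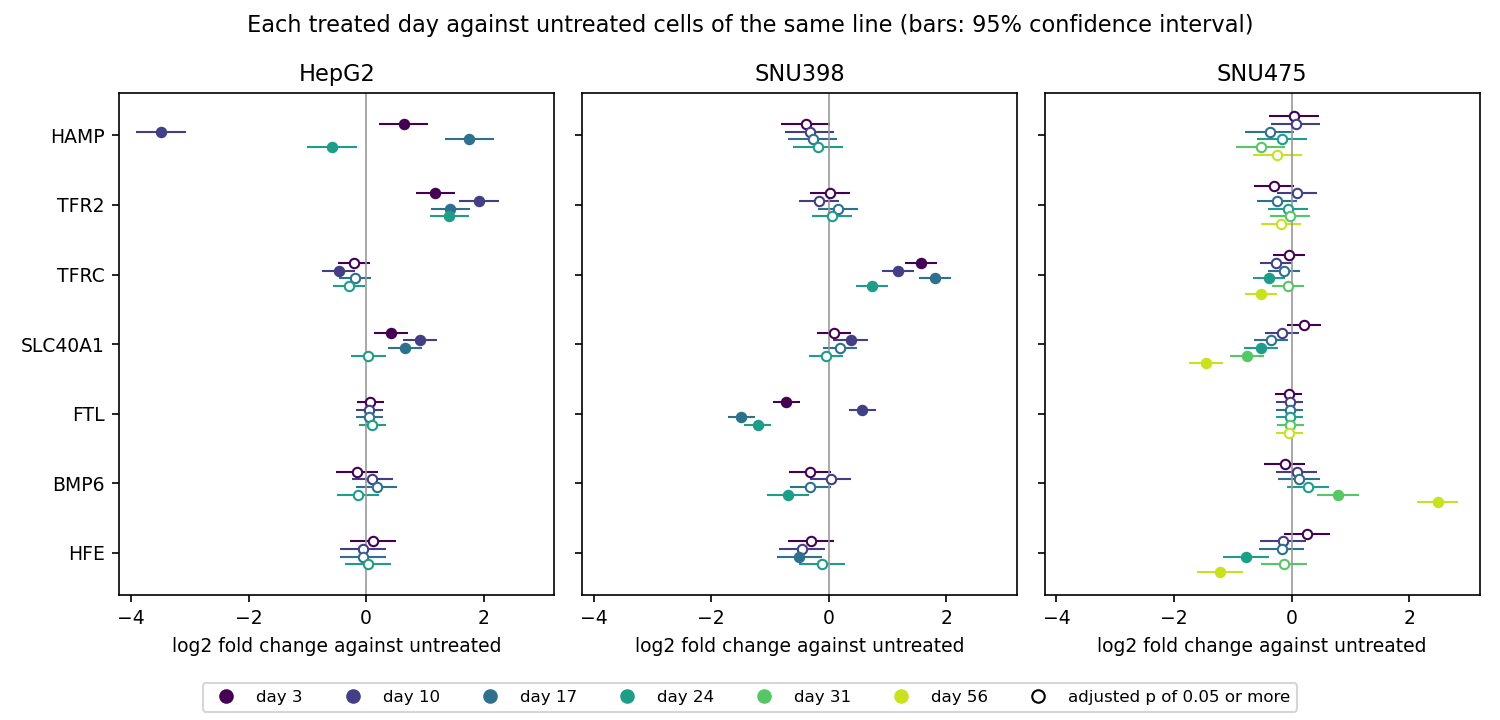
Log2 fold change of each measured member on each treated day against untreated cells of its line, from the limma fit, with bars for the 95% confidence interval. Filled points passed an adjusted p of 0.05 and open points did not. HAMP in HepG2 spans -3.49 to 1.75, TFRC was above 0 on all 4 days in SNU398, and BMP6 and SLC40A1 parted in SNU475 at day 56 (2.48 and -1.46).

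Between one sampled day and the next, HepG2 had 3 of 7 members called from day 3 to day 10 (TFR2 and SLC40A1 higher, HAMP lower), against 28.1% of all genes, and 2 of 7 from day 10 to day 17 (HAMP higher, TFR2 lower), against 26.5%. From day 17 to day 24 HAMP and SLC40A1 were lower, 2 of 7 against 8.4%. The SLC40A1 steps, 0.50 ± 0.14 to day 10 and -0.62 ± 0.14 to day 24, depended on single arrays. The former was lost without day 3 array 1 or day 10 array 2 (0.44 each, adjusted p = 0.0769 and 0.0755), and the latter without day 24 array 2 (-0.53, adjusted p = 0.0933) and with the mean of both probes (-0.41, adjusted p = 0.0654).

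In SNU398 the steps called FTL and TFRC, in opposite directions, to day 10 (34.1% of all genes called) and to day 17 (27.4%), and TFRC alone to day 24 (11%). In SNU475 the steps to days 10 and 17 called no member, against 18.2% and 0.595%. HFE alone was called from day 17 to day 24, against 13.5% of all genes. It was not above background at day 24, at least 1.36-fold lower than at day 17 (adjusted p = 0.0327), and the call was lost with any of the 4 arrays left out (adjusted p from 0.116 to 0.145). From day 24 to day 31 HFE and BMP6 were higher, against 29.5%, and the BMP6 step of 0.51 ± 0.17 was lost with any of the 4 arrays left out (adjusted p from 0.0661 to 0.135). From day 31 to day 56 BMP6 was higher and TFRC, HFE and SLC40A1 lower, against 45%, and the TFRC step (-0.47 ± 0.13) was lost without day 31 array 2 (-0.37, adjusted p = 0.0745).

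Within an array set, SNU398 had FTL lower at day 17 than at day 3, against 7.53% of all genes, and TFRC and FTL lower at day 24 than at day 3, against 18.1%. The FTL difference of day 24, -0.49 ± 0.11, was -0.34 without day 3 array 2 (adjusted p = 0.0712). Against day 10 of the same set, SNU475 had HFE lower at day 24 (11.4% of all genes called), a value lost with any of the 4 arrays left out (adjusted p from 0.112 to 0.124). At day 31 BMP6 was higher and SLC40A1 and HAMP lower (26.7%). Of these, BMP6 (0.70 ± 0.17) was 0.52 without day 10 array 2 (adjusted p = 0.0783), SLC40A1 (-0.60 ± 0.14) was -0.27 with the mean of both probes (adjusted p = 0.155), and HAMP was above background on 1 of 2 arrays at day 10 and on 0 of 2 at day 31, a call that was lost without day 31 array 1 (adjusted p = 0.46) or either array of day 10 (adjusted p = 0.0508 and 0.201). At day 56 BMP6 was higher and HFE and SLC40A1 lower (45.6%).

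Differences between lines were counted in the same way. The mean change over days 3 to 24 differed between HepG2 and SNU398 in TFR2 and TFRC, against 35.9% of all genes. It differed between HepG2 and SNU475 in TFR2 and SLC40A1, against 25.4%, and between SNU398 and SNU475 in TFRC, against 36.1%. The day 10 change differed between HepG2 and SNU398 in HAMP, TFR2, SLC40A1 and TFRC, against 31.5%. It differed between HepG2 and SNU475 in HAMP, TFR2 and SLC40A1, against 24.9%, and between SNU398 and SNU475 in TFRC and SLC40A1, against 31%. FTL also passed the test in each of these comparisons that involve SNU398. With FTL at the top of the scale in the other line, these calls reflect the SNU398 values and are not read as a difference between lines. The HAMP calls at day 10 likewise reflect the HepG2 values, on a day chosen with the HepG2 fall already known. HAMP lay near background in SNU398 and SNU475, where a fall of the size seen in HepG2 could not have been measured. Of these day 10 differences, that of SLC40A1 between HepG2 and SNU398 (0.55 ± 0.20) was lost without untreated HepG2 array 1, untreated SNU398 array 1, HepG2 day 10 array 2 or either SNU398 array of day 10 (0.39 to 0.56, adjusted p from 0.0712 to 0.198). That of SLC40A1 between SNU398 and SNU475 (0.53 ± 0.20) was lost without array 2 of either untreated line or any array of day 10 (0.36 to 0.54, adjusted p from 0.0845 to 0.239), and it was 0.82 on the deposited scale and 0.85 with median scaling. These comparisons share the arrays of a line and are not independent of each other. Each also includes a change in SNU398 or SNU475 that crosses array sets, and the part of the set was not tested.

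Before treatment the lines differed in most members, as they did in most genes. HepG2 was higher than SNU398 in HAMP, TFRC, TFR2, SLC40A1 and FTL and lower in HFE and BMP6, 7 of 7 called against 58.5% of all genes. It was higher than SNU475 in HAMP, TFRC and TFR2 and lower in HFE and BMP6, against 58.8%. SNU398 was higher than SNU475 in BMP6 and lower in TFRC, HFE, SLC40A1 and FTL, against 60.1%. Untreated SNU475 lies in array set 2 and the other untreated lines in set 1. In both comparisons with SNU475, line and array set thus cannot be told apart. TFR2 was at least 1.28-fold higher in HepG2 than in either other line. BMP6 was at least 2.48-fold lower in HepG2 than in SNU398 and at least 1.39-fold lower than in SNU475. HFE was at least 1.53-fold lower in HepG2 than in SNU475 (adjusted p = 7.87e-05). It was at least 1.11-fold lower in HepG2 than in SNU398 (adjusted p = 0.0274), which was lost without HepG2 array 1 (adjusted p = 0.222) or SNU398 array 1 (adjusted p = 0.157). Its difference between SNU398 and SNU475 (-0.46 ± 0.19, adjusted p = 0.0374) was lost without SNU398 array 1 (-0.55, adjusted p = 0.0501), SNU398 array 2 (-0.37, adjusted p = 0.188) or SNU475 array 1 (-0.35, adjusted p = 0.216).

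Of 27 other genes of BMP and hepcidin signalling, 24 were measured. In HepG2, 4, 10, 9 and 7 of them were higher at days 3, 10, 17 and 24, and 6, 6, 3 and 5 lower. That is 41.7%, 66.7%, 50% and 50% of the list, against 14.7%, 32.8%, 25.8% and 26% of all genes. The median of the 24 was 0.26 at day 10, against 0.01 over all genes, although ID1 and ID3 lay among the lower ones. In SNU398, 5, 13, 11 and 6 were higher and 1, 1, 1 and 0 lower, or 25%, 58.3%, 50% and 25%, against 33.5%, 35.4%, 34.5% and 19.9%. There ID1 rose by 1.20 ± 0.13, 1.44 ± 0.13 and 1.32 ± 0.13 at days 3, 10 and 17, and ID3 by 1.45 ± 0.12 at day 17. HAMP stayed near background, and these values cross array sets. Within set 2 ID1 and ID3 fell by 1.04 ± 0.13 and 1.38 ± 0.12 from day 17 to day 24. At day 24 neither was called against untreated SNU398 (0.28 ± 0.13 and 0.08 ± 0.12, adjusted p = 0.13 and 0.727). In SNU475, where HAMP also lay near background, ID1 read -0.65, -1.22, -1.32 and -1.34 (each ± 0.13) at days 3, 10, 17 and 24. ID3 read -0.61, -0.93, -1.06 and -1.06 (each ± 0.12) on these days, and each value was called. From day 10 on they cross array sets. Within the set both rose from day 24 to day 31, by 1.17 ± 0.13 and 0.73 ± 0.12. At day 31 neither differed from untreated cells by the test. In SNU475 BMP4, a ligand of the same pathway as BMP6, was below background untreated and at least 3.52-fold higher at day 3 (adjusted p = 2.39e-10). At day 56 GDF15 had risen by 4.40 ± 0.16 (adjusted p = 3.03e-19) and BMP2 had fallen by 1.54 ± 0.15 (adjusted p = 7.32e-10), both across array sets. Within set 3 GDF15 rose by 3.93 ± 0.16 from day 31 to day 56 (adjusted p = 6.6e-18).

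Of 22 other genes of iron import and export, 20 were measured. In HepG2, 1, 8, 7 and 7 were higher at days 3, 10, 17 and 24 and 3, 2, 1 and 2 lower, which is 20%, 50%, 40% and 45% of the list against 14.7%, 32.8%, 25.8% and 26% of all genes. STEAP2, a metalloreductase that readies iron for transport, rose by 1.51 ± 0.12 at day 10, and hemopexin (HPX), the plasma carrier of haem, rose by 2.03 ± 0.14 at day 24. Ceruloplasmin (CP), the ferroxidase that works with ferroportin, was at least 4.69-fold lower at day 17, where 1 of 2 arrays exceeded background (adjusted p = 1.36e-10). In SNU475, 8 were higher and 2 lower at day 56, 50% against 47.7% of all genes, among them the mitochondrial iron importer SLC25A37 (1.56 ± 0.16, adjusted p = 4.15e-09). In SNU398, 3, 3, 2 and 0 were higher and 4, 4, 3 and 1 lower, or 35%, 35%, 25% and 5%, against 33.5%, 35.4%, 34.5% and 19.9%.

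Of 10 genes of iron sensing and storage, 8 were measured. EPAS1, a hypoxia factor whose mRNA carries an iron-responsive element, rose in SNU475 by 3.61 ± 0.13 at day 56 (adjusted p = 3.29e-19), from 9.15 and 9.06 untreated to 12.85 and 12.59. No other gene of that list differed from untreated cells by as much on any day in any line. Within array set 3 EPAS1 rose by 2.71 ± 0.13 from day 31 to day 56 (adjusted p = 3.16e-16). In the haem list 11 of 13 genes were measured. In HepG2, 0, 0, 1 and 2 were higher and 1, 6, 2 and 4 lower at days 3, 10, 17 and 24, or 9.09%, 54.5%, 27.3% and 54.5% of the list against 14.7%, 32.8%, 25.8% and 26% of all genes. CPOX fell at day 10 (-1.30 ± 0.13, adjusted p = 5.58e-09), and HMOX1 rose at days 17 and 24 (0.61 ± 0.14 and 0.68 ± 0.14, adjusted p = 0.00102 and 0.000331). In SNU398, 0, 2, 1 and 0 were higher, with HMOX1 up by 1.35 ± 0.14 at day 10 (adjusted p = 5.4e-09), and 5, 3, 4 and 1 lower, or 45.5%, 45.5%, 45.5% and 9.09% against 33.5%, 35.4%, 34.5% and 19.9%. In SNU475 at day 56, 1 was higher and 7 lower, 72.7% against 47.7%, among them the ferrochelatase gene FECH (-1.53 ± 0.13, adjusted p = 5.32e-11). HMOX1 in SNU475 was lower on each day from 3 to 31 (-0.66 to -1.35 on the log2 scale).

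Of 19 genes of iron-sulphur cluster assembly, 15 were measured. In SNU398, 2 were higher and 6 lower at days 3 and 17, 53.3% of the list against 33.5% and 34.5% of all genes, and in SNU475 at day 56, 1 was higher and 4 lower, 33.3% against 47.7%. All 6 genes of the ferroptosis list were measured, with at most 3 called on a day, in HepG2 at day 17 and in SNU475 at day 24, 50% against 25.8% and 34.3% of all genes. AIFM2, which guards membranes against iron-driven lipid peroxidation, was higher in HepG2 on each treated day, most at day 10 (1.23 ± 0.13, adjusted p = 6.01e-09). SLC7A11, the cystine importer, was lower in HepG2 at day 17 (-0.98 ± 0.15, adjusted p = 5.17e-06).

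Genes with patterns most like the members were ranked by Pearson's r over the 17 group means after removing each line's mean, as a description with no test. For HAMP these were AK4 (0.918), PAQR8 (0.901), SLC38A6 (0.896), CAMK2D (0.866) and SPATA4 (0.859). PAQR8 stood in HepG2 at 11.55 and 11.64 untreated, 9.85 and 9.76 at day 10, and 12.02 and 11.82 at day 17, so it shared the dip and, less so, the overshoot. With line means kept, the closest were EPO (0.977), MOGAT1 (0.977), CYP2W1 (0.973), C9orf152 (0.969) and MT1M (0.969), an order set largely by higher levels in HepG2. EPO, the gene of erythropoietin, stood in HepG2 at 9.18 and 9.11 untreated, below background at 6.89 and 6.83 at day 10, and 9.04 and 9.05 at day 17. MT1M, a metallothionein, followed HAMP's order at days 10 and 17 with 8.49 and 8.86, then 12.65 and 12.32.

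For the other members the closest genes were CSTF3 (0.951), INTS7 (0.940) and PLEKHG2 (0.922) for TFRC. They were CD14 (0.934), LGSN (0.919) and CCL16 (0.913) for TFR2, and CCN3 (0.969), TWIST2 (0.967) and CT55 (0.958) for BMP6. SLC40A1 was followed most closely by PI4KB (0.913), ATMIN (0.905) and KATNAL1 (0.899), HFE by TMEM19 (0.931), ARF5 (0.917) and KCNH2 (0.916), and FTL by BEND6 (0.895), LRRC4C (0.877) and ICA1 (0.851). All 17 means come from the same 34 arrays, so these values describe likeness within these arrays alone.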

How the data were processed

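The deposited values are linear probe intensities, 47230 probes on 34 arrays, from 75.2 to 69865. The authors' normalization of these intensities is not given in the sources used. A second, non-normalized table has 72 columns of per-sample values named by barcode, and as the labels hold no barcodes it was not used. The plan had assumed deposited log2 values. Intensities were instead background-corrected with limma's normexp (offset 50), quantile normalized over all 34 arrays and taken to log2, with limma 3.58.1 under R 4.3.3.

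The background threshold, 6.97, was the mode of the mean array (6.48) plus the 0.95 normal quantile times the spread below it (0.298). Both arrays of a group had to exceed it, and 29367 probes did so in at least 1 group. Of all probes, 30113 had 1 gene symbol, 8 several and 17109 none listed, and 30074 matched RefSeq by identifier. A gene was represented by its brightest kept probe, and other probes were read from a fit over probes. One mean per group was fitted (17 residual and 10.9 prior degrees of freedom), with two-sided moderated tests adjusted within each of 39 comparisons. The number of arrays limits the precision.

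Members, lists and comparisons were chosen with earlier results of these data known. All members are named. From each list, the 3 largest called changes of a comparison may be named, plus ID1, ID3, TMPRSS6 and CREB3L3 at other days, chosen after their values were seen. Lists were counted at the main setting alone. Replicate numbers did not pair arrays: of 136 pairs of groups, 3 had deviations correlated over 0.1. The test was tried on simulated data.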

Additional observations from a re-analysis of the deposited data

Results flagged for a closer look

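These results are given because a test of the difference between the changes in 2 lines passed its threshold for a member. Values are differences of log2 changes with the limma standard error and adjusted p, and no explanation was tested. The HAMP change at day 10 differed by -3.17 ± 0.29 between HepG2 and SNU398 (adjusted p = 1.65e-09) and by -3.56 ± 0.29 between HepG2 and SNU475 (adjusted p = 2.05e-10). HAMP lay near background in SNU398 and SNU475, so no fall of the size seen in HepG2 could have been measured there. Day 10 was chosen with the HAMP fall in HepG2 already known.

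The TFRC mean change over days 3, 10, 17 and 24 differed by -1.61 ± 0.15 for HepG2 minus SNU398 (adjusted p = 1.53e-09) and by 1.53 ± 0.15 for SNU398 minus SNU475 (adjusted p = 3.7e-09). At day 10 these TFRC differences were -1.65 ± 0.19 (adjusted p = 7.9e-08) and 1.45 ± 0.19 (adjusted p = 7.91e-07). Untreated and treated SNU398 lie in different array sets, and so do untreated SNU475 and its arrays from day 10 on. The part of the set in these values was not tested. The TFR2 mean change was larger in HepG2 than in SNU398 by 1.47 ± 0.18 (adjusted p = 3.27e-07) and than in SNU475 by 1.62 ± 0.18 (adjusted p = 9.95e-08). At day 10 TFR2 differed by 2.09 ± 0.23 (adjusted p = 5.32e-08) and 1.83 ± 0.23 (adjusted p = 6.92e-07), with TFR2 below background in both other lines.

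The SLC40A1 mean change was larger in HepG2 than in SNU475 by 0.71 ± 0.16 (adjusted p = 0.00112), and at day 10 by 1.08 ± 0.20 (adjusted p = 0.000168). SNU475 from day 10 on lies in another array set than its untreated cells, and the part of the set was not tested. Under other processing SLC40A1 differed by 1.03 to 1.36 at day 10. Its day 10 difference of 0.55 ± 0.20 for HepG2 minus SNU398 (adjusted p = 0.0357) was lost without untreated HepG2 array 1 (0.47, adjusted p = 0.13), HepG2 day 10 array 2 (0.49, adjusted p = 0.114), untreated SNU398 array 1 (0.39, adjusted p = 0.198) and either SNU398 day 10 array (0.55 and 0.56, adjusted p = 0.0799 and 0.0712). The difference of 0.53 ± 0.20 for SNU398 minus SNU475 (adjusted p = 0.046) was lost without untreated array 2 of SNU398 (0.36, adjusted p = 0.239) or of SNU475 (0.43, adjusted p = 0.169), either SNU398 day 10 array (0.53 and 0.52, adjusted p = 0.0887 and 0.0941) or either SNU475 day 10 array (0.51 and 0.54, adjusted p = 0.0966 and 0.0845).

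The FTL mean change differed by 0.78 ± 0.13 for HepG2 minus SNU398 (adjusted p = 1.35e-05) and by -0.68 ± 0.13 for SNU398 minus SNU475 (adjusted p = 8.76e-05). At day 10 the signs were opposite, at -0.52 ± 0.16 (adjusted p = 0.0129) and 0.60 ± 0.16 (adjusted p = 0.00424). The former was -0.45 without SNU398 day 10 array 1 (adjusted p = 0.0635). FTL lay at the top of the scale in HepG2 and SNU475, where its change could not be read, so these 4 values reflect the SNU398 arrays and are not taken as a difference between lines.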

How the results depend on the processing

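Over all comparisons 96 of 273 member values were called. Of 1455 recomputed values of these calls, 100 missed the threshold and none reversed. Of the 100, 70 came from leaving out an array, 10 from the offset of 16 and 7 from a fit of the lines compared alone. Keeping only genes above background on all 34 arrays drops members that are dim in a line. It took the member calls against untreated cells from 17 higher and 15 lower to 9 and 9, between successive days from 8 and 11 to 4 and 7, between untreated lines from 9 and 8 to 4 and 3, and the lower day 10 differences between lines from 4 to 2. On the deposited scale without further normalization, the lower calls against untreated cells rose from 15 to 23.

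With 1 array left out, the calls against untreated cells ranged from 15 to 18 higher and 13 to 16 lower, and those between successive days from 6 to 9 and 10 to 12. HAMP at day 10 in HepG2 ranged from -3.70 to -3.29 and at day 17 from 1.55 to 1.96. TFRC at day 17 in SNU398 ranged from 1.68 to 1.93, TFR2 at day 10 in HepG2 from 1.84 to 2.01, SLC40A1 at day 56 in SNU475 from -1.55 to -1.36, FTL at day 17 in SNU398 from -1.64 to -1.34 and BMP6 at day 56 in SNU475 from 2.22 to 2.74. The replicate number as a block (replicate block) left 17 higher and 15 lower calls and HAMP at -3.49, and it changed none of the 96 calls. Deviations of same-numbered arrays correlated from -0.139 to 0.166 over the pairs of groups, so the numbers were not taken as pairs.

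On the deposited scale the median change of all genes in SNU475 from day 10 to day 56 lay between -0.23 and -0.19, and 7.43% to 22.6% of called genes were higher, against 46.0% to 59.1% after normalization. Genes called in SNU475 at days 10, 17 and 31 then numbered 6334, 5844 and 5976, against 3150, 2242 and 2160. With median scaling the median of all genes in SNU398 reached 0.12, and 68.4% to 78.7% of called genes were higher, against 50.8% to 56.4%. Levels near background limit HFE in every line, and HAMP and TFR2 in SNU398 and SNU475.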
